A study of Homo sapiens with 10 samples.

Results

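The homologous recombination, Fanconi anemia and damage checkpoint genes described here were 33 of the 57353 gene symbols in a table of RNA-seq read counts from LNCaP-C4-2 cells, a castration-resistant prostate cancer cell line derived from LNCaP. They were chosen by name from the known parts of these pathways, though with earlier results of these data known. All 33 were among the 17230 genes with enough reads to be tested. The counts came from 10 samples of 4 stably transduced lines. NT carried a non-targeting control shRNA (n = 2), KD carried an shRNA against CPT1A (n = 3), EV carried an empty virus (n = 2) and OE over-expressed CPT1A from a lentiviral cDNA (n = 3). CPT1A is the mitochondrial enzyme that lets long-chain fatty acids enter beta-oxidation. NT and KD had been selected with puromycin at 1 µg/ml and EV and OE with blasticidin at 5 µg/ml, so that each line shared its vector type and drug with its own control and not with the other control. KD rested on a single shRNA and each kind of line was made once, as far as the methods describe, so the spread between samples was the spread within a line.

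Homologous recombination repairs double-strand breaks by copying an intact sister chromatid, and works mostly in S and G2 phase, when a sister is present. The Fanconi anemia pathway unhooks DNA crosslinks at stalled replication forks and hands the resulting breaks to recombination. The kinases ATM and ATR and their targets CHEK2 and CHEK1 hold the cell cycle while repair proceeds. Inherited or somatic loss of BRCA2, ATM, BRCA1, PALB2 or CHEK2 is known in advanced prostate cancer, where recombination defects sensitise tumours to PARP inhibitors.

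The libraries held 23555205 to 28615770 counts, and levels are given as CPM, read counts scaled to library size with TMM factors. CPT1A followed the labels, with 265 and 262 CPM in NT, 81.2, 86.4 and 86.2 in KD, 326 and 318 in EV and 869.9, 914 and 861 in OE. All 9 luminal prostate markers were expressed, while 3 of 9 basal, stromal and immune markers had enough reads to be tested, 2 (KRT5 and PECAM1) were at 0 in every library, and the 9 together summed to 18.5 to 20.1 CPM in KD and 10.7 to 15.9 CPM in the other lines, most of it from COL1A1. COL1A1 and PDGFRB, stromal markers, were called higher in KD than in NT, and none of the 3 tested was called in OE against EV. Of the luminal markers 5 were called higher and 1 lower in KD against NT, and 5 higher in OE against EV. Between the controls 6 of the 9 were called higher in EV than in NT. Over all tested genes 16.4% were called higher and 12.8% lower in KD against NT. The share called higher was 11.6% in OE against EV and 5.25% in EV against NT. The part of these markers in the results was not tested. KD replicate 2 stood apart from its 2 partners (chi-square per degree of freedom of 6.70 and 6.93, against 2.29 between the partners), and OE replicate 2 did so less (3.81 and 4.38). The other pairs within a line were at 2.03 to 2.48.

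Values after ± beside CPM and ratios are SD over the samples of a line, with n as above, and positions are on GRCh38. Among the members, the levels per kilobase of transcript in NT ran from 26.9 CPM per kilobase for UBE2T, 18.8 for BARD1 and 18.7 for MUS81 down to 0.745 for FANCB, 0.729 for BRIP1 and 0.574 for RAD54B. The last of these had as few as 20 reads in a library and FANCB as few as 26, so that a change of modest size in them could be missed. Summed over the 33 genes, NT reached 775 and 814 CPM and KD 1195, 1048 and 1167 CPM. EV had 749.9 and 766 CPM and OE 673, 634 and 668 CPM. Every KD sample lay above all others and every OE sample below all others in this sum.

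In KD most of the members that were called rose relative to NT. Calls were made at the limit of the study, an adjusted p under 0.0001 (edgeR's quasi-likelihood test, Benjamini-Hochberg over the 17230 genes). Of the 33 members, 18 were higher in KD and 3 were lower, where 16.4% of all tested genes were higher and 12.8% lower (29.1% either way). The median log2 fold change was 0.81 over the members and -0.02 over all tested genes. The 18 were BRCA1, BRCA2, RAD51AP1, XRCC2, XRCC3, RAD54L, BLM, BRIP1, EME1, FANCA, FANCC, FANCF, FANCG, UBE2T, FANCD2, FANCI, CHEK1 and CHEK2, and they rose by 1.38-fold to 3.11-fold. The 3 lower genes were BARD1, MUS81 and ATM. In 26 members every KD sample was above both NT samples, in 5 every KD sample was below, and in RAD51B and RBBP8 the groups overlapped. Groups this small often do not overlap. Between the controls both EV samples were above both NT samples in 15 members and below in 8, where 3 members were called. The share of all tested genes without overlap was not counted. Without KD replicate 2 the count was 20 higher and 3 lower.

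**Figure D1:**
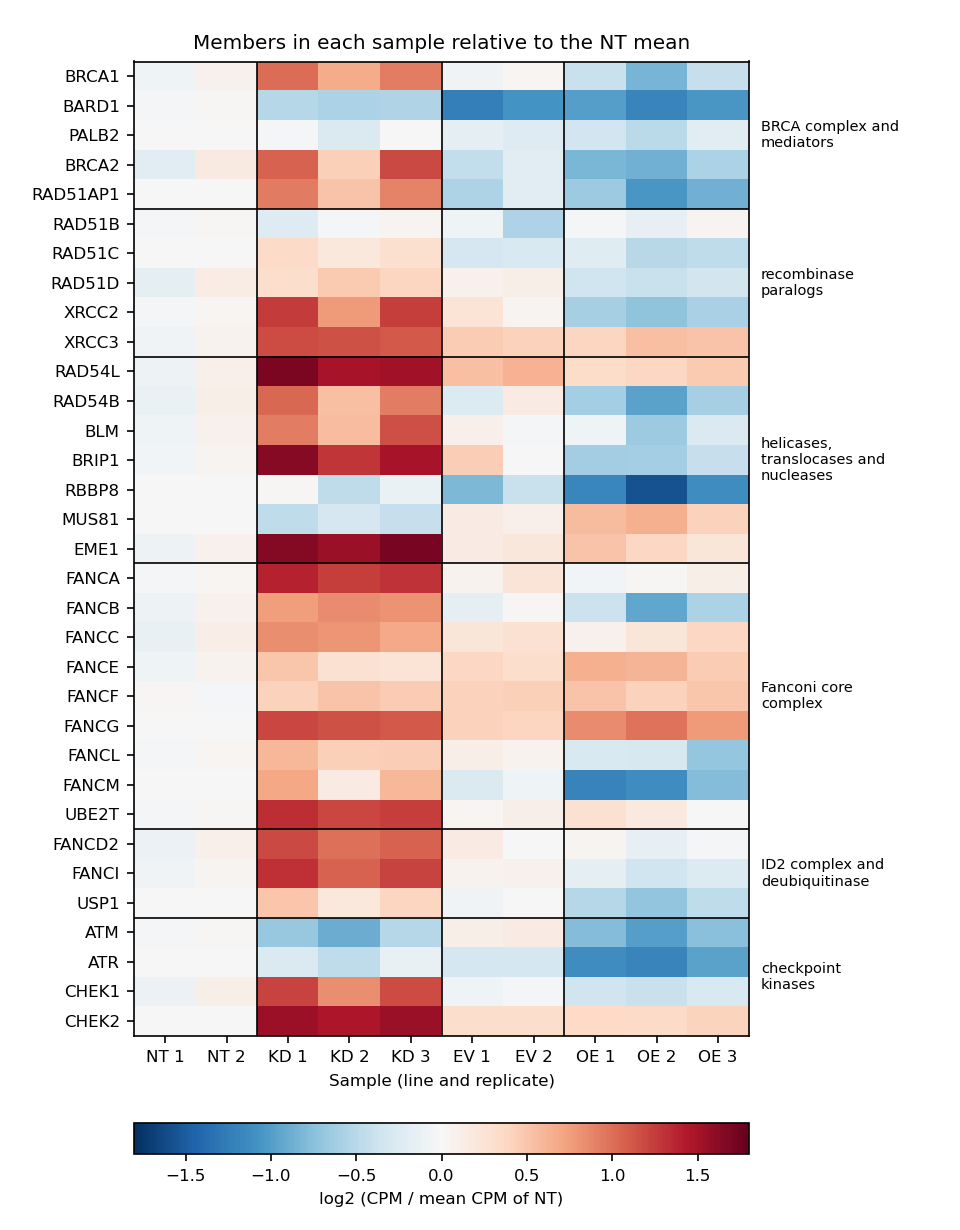
Level of each of the 33 members in each of the 10 samples as log2 of its CPM over the mean CPM of the 2 NT samples, with red for higher and blue for lower and the members ordered by role. The 3 KD columns are red for most genes and blue for BARD1, MUS81 and ATM, and KD 2 is paler than KD 1 and KD 3 for BRCA1, BRCA2 and RAD51AP1.

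At this limit OE did not mirror KD. Against EV, 2 members were higher and 6 lower, with backgrounds of 11.6% and 10.3% of all tested genes (21.9% either way). The counts were 0 higher and 2 lower without EV replicate 1, 0 and 3 without EV replicate 2, and 2 and 2 with an offset for GC content, described further on. Other settings gave more calls, with 2 higher and 10 lower with no filter and in the fit of this arm alone. Without KD replicate 2 the counts were 2 and 9, and with replicate number as a block 2 and 8. The median was -0.29 over the members and -0.02 over all genes. Values were negative in 23 of the 33 members and in 8915 of the 17230 tested genes. In 18 members every OE sample was below both EV samples, in 5 every OE sample was above, and in 10 the groups overlapped. The share of all tested genes without overlap was not counted here either. Between the controls, EV against NT, 15 members were above without overlap and 8 below. In OE MUS81 and FANCG rose, and ATM, ATR, USP1, XRCC2, FANCM and BRIP1 fell, by 1.44-fold to 1.95-fold. Taking both arms, which share no samples, 15 members rose in KD and were not called in OE, XRCC2 and BRIP1 rose in KD and fell in OE, FANCG rose in both, ATM fell in both, and MUS81 fell in KD and rose in OE. FANCM, USP1 and ATR fell in OE and were not called in KD. BARD1 fell in KD alone, and 9 members were called in neither arm. Over all tested genes 10.1% were higher in KD and not called in OE, 0.952% were higher in KD and lower in OE, 5.3% were higher in both and 3.73% lower in both. A further 0.772% were lower in KD and higher in OE, 5.62% were lower in OE and not called in KD, 8.26% were lower in KD alone and 59.7% were called in neither.

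**Figure D2:**
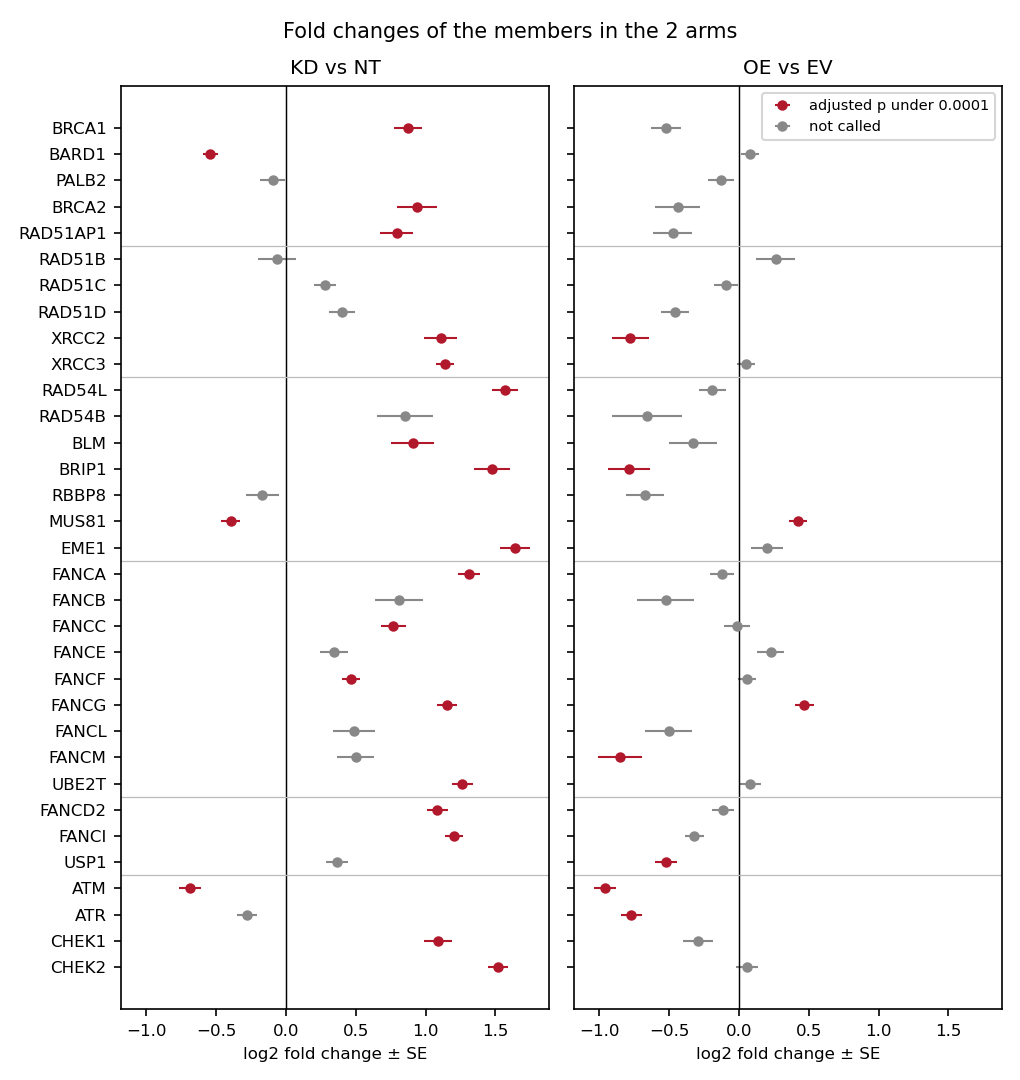
Log2 fold change of each member in KD against NT (left) and OE against EV (right), as points with bars of 1 standard error from the edgeR fit on all 10 samples, in red where the adjusted p was under 0.0001. On the left most points lie to the right of 0, up to 1.64 for EME1, while on the right all lie between -0.96 (ATM) and 0.47 (FANCG).

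The BRCA complex split in KD. BRCA1 and BARD1 form the ubiquitin ligase that promotes end resection and loading of the recombinase, PALB2 ties BRCA1 to BRCA2, BRCA2 loads the recombinase onto single-stranded DNA, and RAD51AP1 stimulates strand exchange. BRCA1 (chromosome 17, 43044295 to 43170245, minus strand) had 26.7 and 29.8 CPM in NT, 56.8, 44.9 and 53.5 in KD, 26.9 and 29.1 in EV and 21.3, 15.8 and 21.1 in OE. It was 1.83-fold higher in KD (log2 fold change 0.87 ± 0.099 SE, edgeR, Benjamini-Hochberg adjusted p = 5.31e-08), and in OE its log2 value of -0.52 was not called although no OE sample reached an EV sample (edgeR, Benjamini-Hochberg adjusted p = 0.000222). BRCA1 was called lower in OE under 5 of the alternative settings, among them the DESeq2 Wald test and the fit of the OE arm alone. Its partner BARD1 (chromosome 2, 214725646 to 214809683, minus strand) went the other way, with 102 and 104 CPM in NT and 71.9, 69.5 and 70.8 in KD (log2 fold change -0.54 ± 0.057 SE, edgeR, Benjamini-Hochberg adjusted p = 1.5e-08). EV was lower still, at 43.99 and 48.6 CPM, and OE at 51.6, 45.03 and 49.9 CPM overlapped it. The CPM ratio of BRCA1 to BARD1 was 0.275 ± 0.0167 (SD, n = 2) in NT, 0.731 ± 0.0757 (n = 3) in KD, 0.606 ± 0.00996 (n = 2) in EV and 0.396 ± 0.0395 (n = 3) in OE, with no overlap between any 2 lines. BRCA2 had 23.1 and 29.5 CPM in NT and 54.8, 35.5 and 60.2 in KD, with KD replicate 2 lowest of the 3, and was 1.92-fold higher (edgeR, Benjamini-Hochberg adjusted p = 5.1e-06). That call was lost without NT replicate 1, at a log2 value of 0.77 (edgeR, Benjamini-Hochberg adjusted p = 0.00104), with the DESeq2 Wald test and in the fit of this arm alone. RAD51AP1 had 12.3 ± 0.0998 CPM in NT and 21.4 ± 3.28 in KD (log2 fold change 0.79 ± 0.12 SE), and lost its call without either NT sample. PALB2 stayed between 13.1 and 18.4 CPM in all 10 samples and was called in no comparison.

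Of the recombinase paralogs, which form complexes that steady the recombinase filament, XRCC2 and XRCC3 rose in KD and the other 3 were not called. XRCC3 (chromosome 14, 103697609 to 103715504, minus strand) had 27.2 and 29.8 CPM in NT and 64.4, 62.8 and 61.5 in KD, a 2.21-fold rise (edgeR, Benjamini-Hochberg adjusted p = 2.49e-13). EV and OE lay between them, with 39.04 and 37.9 CPM in EV and 37.2, 41.6 and 40.7 in OE. XRCC2 had 9.85 and 10.3 CPM in NT and 23.98, 17.2 and 23.8 in KD (log2 fold change 1.11 ± 0.12 SE), and 11.9 and 10.4 in EV against 6.66, 6.11 and 6.73 in OE (log2 fold change -0.78 ± 0.13 SE). The second of these calls was lost under 8 of the alternative settings, among them leaving out any 1 EV or OE sample and limma-voom (edgeR or limma, Benjamini-Hochberg adjusted p of 0.000155 to 0.00315). RAD51C and RAD51D had log2 values of 0.28 and 0.40 in KD that did not pass the limit, and RAD51B, at 4.503 to 6.85 CPM over the 10 samples, was called in no comparison, although both EV samples were below both NT samples.

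Among the helicases, translocases and nucleases, 4 of 7 rose in KD and 1 fell. Over all tested genes 16.4% were called higher there and 12.8% lower. EME1 and MUS81 are the subunits of a structure-selective nuclease that cuts joint molecules and stalled forks, and they moved apart. EME1 (chromosome 17, 50373220 to 50381483, plus strand) had 5.999 and 6.75 CPM in NT and 19.96, 18.7 and 20.9 in KD, a 3.11-fold rise that no other member exceeded (log2 fold change 1.64 ± 0.11 SE, edgeR, Benjamini-Hochberg adjusted p = 2.5e-12). MUS81 (chromosome 11, 65857126 to 65867653, plus strand) fell from 44.2 and 44.3 to 32.2, 35.7 and 33.1 CPM (log2 fold change -0.40 ± 0.067 SE, edgeR, Benjamini-Hochberg adjusted p = 2.03e-05), a call lost without either NT sample, KD replicate 1 or KD replicate 3 and in the fit of this arm alone, while its log2 value stayed between -0.37 and -0.39. In the other arm MUS81 rose from 49.02 and 47.3 CPM in EV to 65.8, 69.2 and 59.3 in OE (log2 fold change 0.43 ± 0.065 SE), a call lost without either EV sample (edgeR, Benjamini-Hochberg adjusted p = 0.000182 and 0.000785) and with library size scaling. EME1, with 7.06 and 7.34 CPM in EV and 9.13, 8.28 and 7.43 in OE, was not called. The ratio of EME1 to MUS81 CPM was 0.144 ± 0.0119 (SD, n = 2) in NT, 0.149 ± 0.00785 (n = 2) in EV and 0.128 ± 0.00973 (n = 3) in OE, and 0.591 ± 0.06 (n = 3) in KD.

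RAD54L, a translocase that works with the recombinase during strand exchange, had 7.81 and 8.82 CPM in NT, 26.9, 23.4 and 23.8 in KD, 12.1 and 12.9 in EV and 10.4, 10.8 and 11.5 in OE, and was 2.97-fold higher in KD (log2 fold change 1.57 ± 0.096 SE). BRIP1, the helicase that binds BRCA1, had 5.77 and 6.16 CPM in NT, 18.5, 14.6 and 16.7 in KD, 8.11 and 6.004 in EV and 3.87, 3.89 and 4.49 in OE. It was 2.78-fold higher in KD (edgeR, Benjamini-Hochberg adjusted p = 5.1e-10) and 1.73-fold lower in OE (edgeR, Benjamini-Hochberg adjusted p = 8.73e-05), the latter close to the limit and lost under 12 of the alternative settings. BLM, which dissolves double Holliday junctions, rose 1.88-fold in KD from 5.46 ± 0.417 CPM in NT, a call lost under 6 of the alternative settings, among them leaving out either NT sample. RBBP8, which starts end resection, was not called in KD or OE, at 14.1 and 18.7 CPM in EV and 10.9, 8.28 and 11.4 in OE (edgeR, Benjamini-Hochberg adjusted p = 0.000195). RBBP8 was called lower in OE under 4 of the alternative settings, among them the fit of the OE arm alone.

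The Fanconi core complex puts ubiquitin on FANCD2 and FANCI, with FANCL as the ligase, UBE2T as the conjugating enzyme and FANCM as the anchor on DNA. All 9 listed parts had positive values in KD and 5 were called. Of the 17230 tested genes 8358 had positive values there and 16.4% were called higher. UBE2T had 23.2 and 24.03 CPM in NT and 59.6, 54.1 and 56.3 in KD (2.40-fold), and 24.3 and 25.4 in EV and 28.6, 26.7 and 23.6 in OE. FANCA had 14.7 ± 0.479 CPM (SD, n = 2) in NT and 36.5 ± 1.74 (n = 3) in KD (2.48-fold). FANCC, at 16.4 ± 1.99 and 27.98 ± 1.56 CPM, rose 1.70-fold, and FANCF, at 27.1 ± 0.577 and 37.4 ± 1.32 CPM, rose 1.38-fold, the smallest of the 18 rises and one not called without NT replicate 2. FANCB, FANCE, FANCL and FANCM were not called in KD. FANCM was called higher there under 3 of the alternative settings. FANCG (chromosome 9, 35073835 to 35080004, minus strand) was the member that rose in both arms. It had 21.4 and 21.4 CPM in NT and 49.5, 47.5 and 46.1 in KD (log2 fold change 1.15 ± 0.069 SE), and 28.5 and 27.9 in EV and 38.6, 42 and 36.6 in OE (log2 fold change 0.47 ± 0.068 SE, edgeR, Benjamini-Hochberg adjusted p = 3.85e-06). Leaving out either EV sample or scaling by library size lost the second of these calls. FANCM fell in OE, from 7.29 and 8.32 CPM in EV to 3.79, 4.03 and 5.11 (log2 fold change -0.85 ± 0.16 SE, edgeR, Benjamini-Hochberg adjusted p = 7.6e-05), a call lost under 11 of the alternative settings.

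FANCD2 and FANCI, the pair that the core complex modifies, both rose in KD. FANCI (chromosome 15, 89243945 to 89317261, plus strand) had 52.9 and 57.1 CPM in NT, 137, 115 and 128 in KD, 57.6 and 58.1 in EV and 49.4, 43.1 and 46.5 in OE. Its rise in KD was 2.30-fold (log2 fold change 1.20 ± 0.067 SE, edgeR, Benjamini-Hochberg adjusted p = 2.03e-13), and that of FANCD2, from 27.3 and 31.4 to 66.6, 58.5 and 61.3 CPM, was 2.12-fold. The CPM ratio of FANCI to FANCD2 was 1.88 ± 0.0857 (SD, n = 2) in NT, 2.04 ± 0.0582 (n = 3) in KD, 1.88 ± 0.153 (n = 2) in EV and 1.63 ± 0.00836 (n = 3) in OE. Every KD ratio was above both NT ratios, and every OE ratio was below both EV ratios. USP1, which takes the ubiquitin off again, had 44.4 and 44.6 CPM in NT and 62.6, 50.8 and 58.5 in KD and was not called there (edgeR, Benjamini-Hochberg adjusted p = 0.000221). It fell in OE, from 42.7 and 44.5 CPM in EV to 31.1, 27.2 and 32.6 (log2 fold change -0.52 ± 0.079 SE), and lost that call without either EV sample.

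At the checkpoint, the effector kinases rose in KD and the apical kinases did not. CHEK2 (chromosome 22, 28687743 to 28742422, minus strand) had 13.4 and 13.5 CPM in NT and 39.03, 36.8 and 39.3 in KD, a 2.86-fold rise with the smallest p of all members in this comparison (edgeR, Benjamini-Hochberg adjusted p = 1.45e-14). It had 16.7 and 16.6 CPM in EV and 17.1, 17.1 and 17.8 in OE, a small step that was not called. CHEK1 had 13.2 and 15.3 CPM in NT and 33.1, 25.6 and 32.2 in KD (log2 fold change 1.09 ± 0.099 SE). ATM (chromosome 11, 108223044 to 108369102, plus strand), which answers double-strand breaks and phosphorylates CHEK2, had 68.03 and 70.6 CPM in NT and 43.02, 37.2 and 48.7 in KD (log2 fold change -0.69 ± 0.078 SE, edgeR, Benjamini-Hochberg adjusted p = 6.36e-08). It also had 74.8 and 76.8 CPM in EV and 40.5, 34.98 and 41.1 in OE (log2 fold change -0.96 ± 0.079 SE, edgeR, Benjamini-Hochberg adjusted p = 7.69e-10). ATM was thus lower in both modified lines than in their controls, by 1.61-fold and 1.95-fold, and the difference between the 2 changes did not pass the limit (interaction log2 value -0.28, edgeR, Benjamini-Hochberg adjusted p = 0.0491). ATR (chromosome 3, 142449007 to 142578733, minus strand), which answers single-stranded DNA at stalled forks and phosphorylates CHEK1, had 59.7 and 59.6 CPM in EV and 34.3, 32.5 and 37.8 in OE (log2 fold change -0.77 ± 0.075 SE, edgeR, Benjamini-Hochberg adjusted p = 1.06e-08). In the other arm it had 73.6 and 74.7 CPM in NT and 61.7, 53.9 and 67.5 in KD, lower in every sample and not called (edgeR, Benjamini-Hochberg adjusted p = 0.00165). With replicate number as a block ATR was called lower in KD. The ratio of CHEK2 to ATM CPM was 0.194 ± 0.00394 (SD, n = 2) in NT, 0.901 ± 0.0907 (n = 3) in KD, 0.2198 ± 0.00456 (n = 2) in EV and 0.448 ± 0.0349 (n = 3) in OE.

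**Figure D3:**
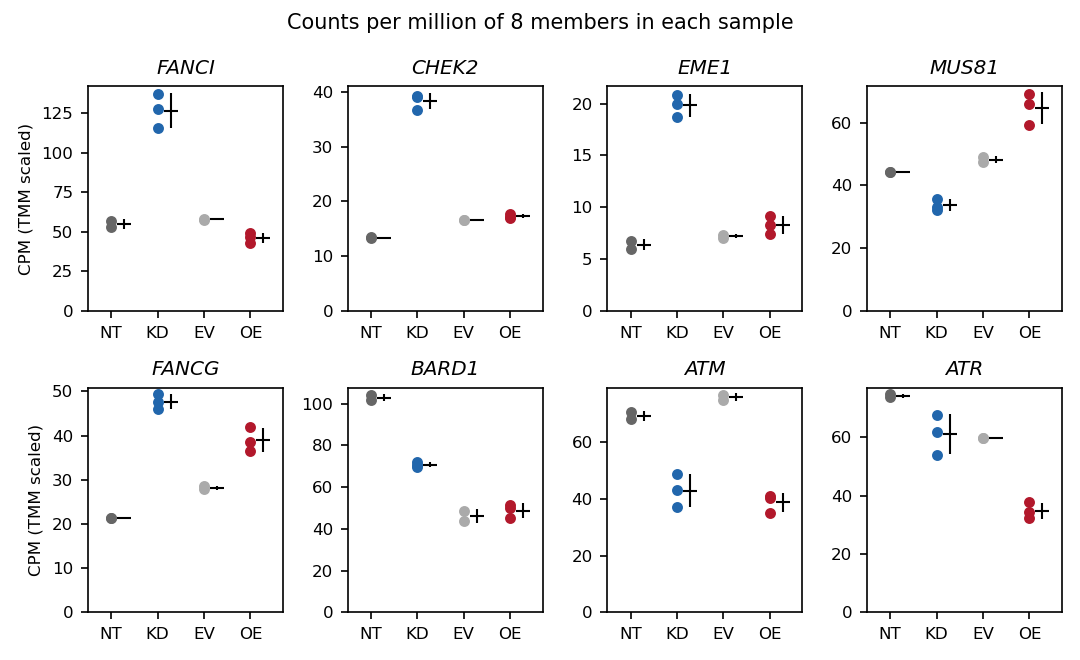
CPM of 8 members in each sample of the 4 lines, as points, with the mean and SD of each line as a cross beside them and every axis starting at 0. FANCI, CHEK2 and EME1 are high in KD and lower in the other lines, MUS81 falls in KD and rises in OE, FANCG rises in both, BARD1 is highest in NT, ATM is lower in KD and OE than in either control, and ATR is lowest in OE.

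The calls in OE went with base composition and with transcript length. Over the members the Spearman correlation between the OE against EV log2 fold change and the GC content of the transcript was 0.72, a description over 33 genes measured in the same libraries, and over 14110 genes with a known GC content it was 0.45. In KD against NT the values were 0.23 and 0.22. Between the controls, EV against NT, they were 0.66 and 0.37, and in OE against KD 0.53 and 0.40. The trend with GC content was therefore not particular to OE against EV. When all genes were put into 5 equal classes by GC content, the median OE against EV log2 fold change ran from -0.34 in the lowest class to 0.26 in the highest. The lowest class, at or below 41.1% GC, held 13 members, among them the 6 that fell in OE, and 12 of the 13 had negative values with a median of -0.66. Both genes that rose were among the 9 members of the upper 3 classes, and the class between held the other 11 members. Against transcript length the correlation in OE was -0.57 over the members and -0.23 over all genes.

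With GC content entered as an offset in the fit, 4 members were called in OE against EV, BARD1 and FANCG as higher and ATM and ATR as lower, where 13.2% of all genes were then higher and 6.8% lower. ATM had a log2 value of -0.60 and ATR of -0.45 in that fit (edgeR, Benjamini-Hochberg adjusted p = 2.55e-10 and 8.02e-08), and MUS81 fell just outside the limit at 0.27 (edgeR, Benjamini-Hochberg adjusted p = 0.000104). BRIP1, XRCC2, FANCM and USP1 had -0.41, -0.47, -0.46 and -0.15 and were not called. The median over the members moved from -0.29 to -0.06. In KD against NT the same offset gave 23 higher and 3 lower (18.2% and 13.2% of all genes), and the median moved from 0.81 to 1.01. Scaling by library size alone moved the median of all genes in OE against EV from -0.02 to -0.12, and left 4 members called, all lower. At an adjusted p under 0.05 (edgeR, Benjamini-Hochberg) 3 members were higher and 16 lower in OE, where 25.6% and 26.4% of all genes were.

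**Figure D4:**
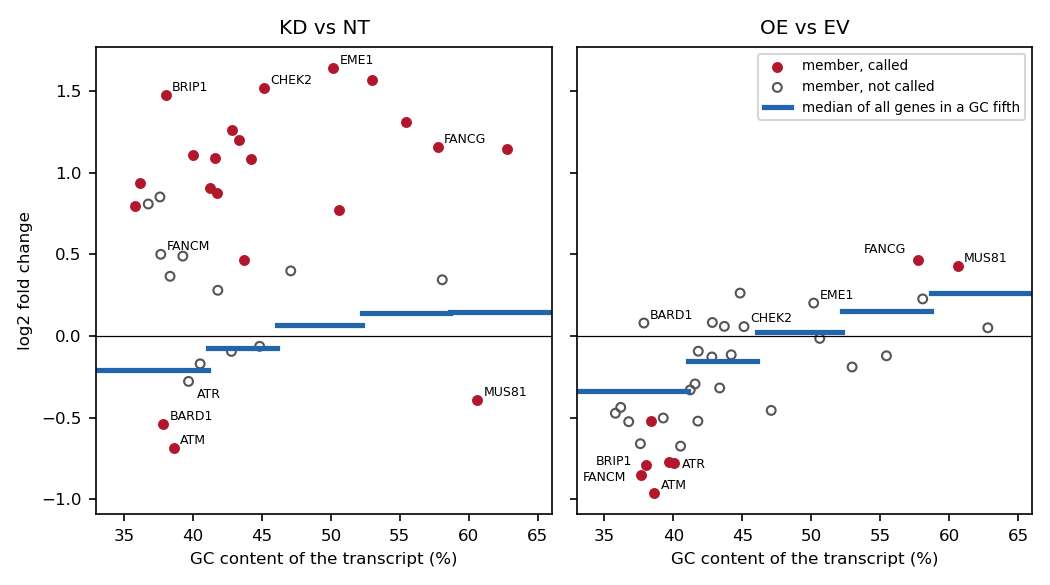
Log2 fold change of the 33 members against the GC content of their transcript in percent, for KD against NT (left) and OE against EV (right), with filled points for called members and blue lines for the median of all genes in each of 5 GC classes. The members stand above the blue lines at most GC contents on the left, and follow them upward on the right, from ATM at -0.96 to FANCG at 0.47.

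The interaction takes the OE against EV difference and subtracts the KD against NT difference, so it uses the samples of both arms, and it is the comparison the study was built on. It called 2 members higher and 19 lower, where 6.94% and 8.98% of all genes were called (15.9% either way), and the median was -1.18 over the members and -0.02 over all genes. BRIP1 had the most negative value, -2.26 ± 0.19 SE (edgeR, Benjamini-Hochberg adjusted p = 1.46e-09), followed by XRCC2 at -1.89, RAD54L at -1.76 and FANCI at -1.52. FANCI had the smallest p (edgeR, Benjamini-Hochberg adjusted p = 6.67e-12). CHEK2, EME1, FANCA, BRCA1 and CHEK1 lay between -1.46 and -1.38. MUS81 at 0.82 and BARD1 at 0.62 were the 2 higher genes. BARD1 had fallen in KD while OE and EV overlapped. FANCG, which rose in both arms, had a value of -0.69, having risen more in KD than in OE. With the offset for GC content the counts were 2 higher and 20 lower (9.78% and 9.81% of all genes).

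OE was also set against KD without the controls, on samples that the interaction uses too. Here 26 members were lower in OE and 1, MUS81, was higher (log2 fold change 0.94 ± 0.059 SE, edgeR, Benjamini-Hochberg adjusted p = 1.82e-12), with backgrounds of 16.4% and 15.5% (31.9% either way). FANCI had -1.45 ± 0.06 SE (edgeR, Benjamini-Hochberg adjusted p = 8.99e-16), and CHEK2, FANCA, UBE2T and BRIP1 had -1.15, -1.28, -1.11 and -2.02. The 6 members not called were PALB2, RAD51B, FANCE, FANCF, FANCG and ATM, and the sign of the small ATM value, -0.15, turned to 0.23 with the GC offset and 0.12 with a length offset. BARD1 was called lower at -0.53 and not with the GC offset, at -0.14. KD and OE also differ in vector and drug, which cannot be told apart from the CPT1A change.

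Few members were called between the 2 control lines. In EV against NT, which shares the NT samples with the KD comparison, 2 members were called higher and 1 lower, where 5.25% and 2.91% of all genes were called (8.16% either way), so the members' share was near the background. BARD1 was 2.22-fold lower in EV (log2 fold change -1.15 ± 0.065 SE, edgeR, Benjamini-Hochberg adjusted p = 1.45e-12), a difference more than 2 times the log2 value it had between KD and NT, and the call held without each sample in turn and under every other setting run. XRCC3 and FANCF were higher, at 0.43 and 0.42, and both lost the call without any 1 of the 4 control samples, XRCC3 also with the GC offset and FANCF without OE replicate 1. RAD54L and FANCG had 0.58 and 0.40 and were not called (edgeR, Benjamini-Hochberg adjusted p = 0.000226 and 0.000322). Without KD replicate 2 in the fit, which is in neither group, 7 members were called, and at an adjusted p under 0.05 (edgeR, Benjamini-Hochberg) 6 were higher and 5 lower, where 18.5% and 15.5% of all genes were. The targeted gene CPT1A also differed between the controls, with EV above NT by a log2 value of 0.29 (edgeR, Benjamini-Hochberg adjusted p = 9.8e-05).

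Genes of replication and mitosis rose beside the members in KD, and in OE the mitotic markers rose while most replication genes were not called. Of 20 replication genes, 19 were higher in KD and all 20 had positive values (median 1.22), and of 12 mitotic markers all 12 were higher (median 1.81). Of 17 checkpoint partners 9 were higher and 1 lower, of 22 other recombination and Fanconi genes 9 and 2, and of 11 end joining genes with enough reads 5 and 1. Over all tested genes 16.4% were higher in KD and 12.8% lower. In OE the mitotic markers rose, 8 of 12 (median 0.82), while the replication genes had 1 higher and 4 lower of 20 (median -0.14). Over all tested genes 11.6% were higher in OE and 10.3% lower. The summed CPM of the mitotic markers was 466 and 532 in NT, 1815, 1449.7 and 1697 in KD, 445 and 460.0 in EV and 832, 789 and 792 in OE. For the replication genes the sums were 904 and 961 in NT, 2267, 2043 and 2054 in KD, 1055 and 1034 in EV and 999.6, 987 and 989 in OE. In bulk RNA, more cells in S or G2 phase and more RNA per cell cannot be told apart, and the part of either in the rise of the members was not tested.

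In the interaction 19 of the 20 replication genes were called lower, 9 of the 12 mitotic markers, 9 of the 17 checkpoint partners, 6 of the 22 other recombination and Fanconi genes with 2 called higher, and 3 of the 11 end joining genes, with none called higher in the other 4 lists. Over all tested genes 8.98% were called lower in the interaction and 6.94% higher. The genes named next had the smallest interaction p of their list, and all were lower. The replication genes MCM3 and MCM4, parts of the replicative helicase, had -1.74 and -1.74, and RRM2, which makes deoxynucleotides, had -1.79. CLSPN, the mediator that lets ATR activate CHEK1, had -2.42 and the fork protein TIMELESS -1.42, with CDC25A, the phosphatase that CHEK1 restrains, at -1.90. EXO1, the nuclease of long-range resection, had -1.41, and the Fanconi genes RFWD3 and CENPX had -1.28 and -0.87. In the end joining list, POLQ, the polymerase of microhomology-mediated joining, had -1.58, PARP1 -0.81 and PRKDC -0.72. The mitotic genes KIF11, MKI67 and CDK1 had -1.66, -1.63 and -1.62. The break sensor formed by MRE11, RAD50 and NBN, which recruits ATM, was picked out after its values were seen. All 3 fell in OE against EV, RAD50 from 7.06 and 7.87 to 2.55, 2.897 and 3.598 CPM (log2 fold change -1.30 ± 0.16 SE, edgeR, Benjamini-Hochberg adjusted p = 3.65e-07), MRE11 by a log2 value of -0.49 and NBN by -0.43. With the GC offset RAD50 kept its call at -1.03, and MRE11 and NBN, at -0.12 and -0.02, did not, and these last 2 also lost it without either EV sample. The 22 other recombination and Fanconi genes as a list were even in OE against EV. They had 11 positive and 11 negative values (median 0.01), with 2 called higher and 3 lower. Of the 17 checkpoint partners 2 were called higher and 4 lower. Over all tested genes 11.6% were called higher in OE against EV and 10.3% lower.

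**Figure D5:**
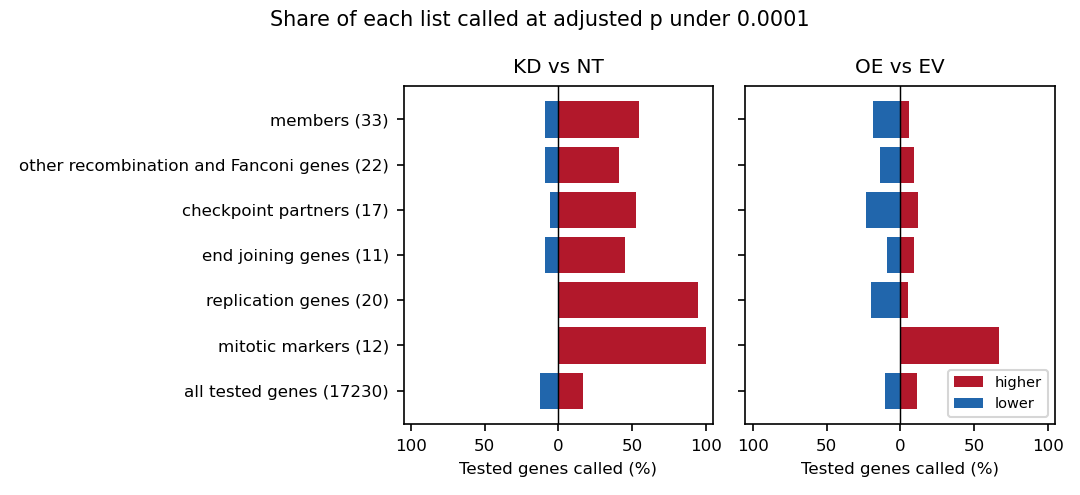
Percent of the tested genes of each list called higher (red, to the right) and lower (blue, to the left) in KD against NT and OE against EV, with the number of tested genes in brackets and all tested genes at the bottom. In KD 54.5% of the members and all mitotic markers are higher, and in OE the mitotic markers reach 66.7% while the members are at 6.06% higher and 18.2% lower.

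The start sites of the members were searched for 3 short motifs of cell cycle genes, on both strands, from 250 bases before the start to 50 after it (RefSeq, GRCh38.p14, 31 of 33 members in the table). The first start listed for a gene was used, and 10 of the 31 had more than 1. For BRCA1, RAD51B and CHEK1 it lay 44963, 3762 and 1066 bases from the start of the canonical transcript, and for the other 28 within 1000 bases of it. The CCAAT box bound by NF-Y was in 15 of 31 (48.4%) against 35.7% of 27305 promoters of all genes. The E2F motif, as TTTCCCGC, TTTCGCGC, TTTGCCGC or TTTGGCGC, was in 4 of 31 (12.9%) against 3.33%, and the CHR element TTTGAA in 4 of 31 against 15.4%. Of the 17 members with a promoter that rose in KD, 10 held CCAAT, 4 E2F and 3 CHR, and of the 14 others 5, 0 and 1. Among the members that fell in KD, ATM held CCAAT and CHR, MUS81 held CCAAT, and BARD1 held none. EME1, FANCG, BRCA1 and BRCA2 rose in KD and held none. CCAAT and CHR were together in UBE2T, BRIP1 and ATM. The stretches below, which hold no exon annotated in GENCODE v44, are shown because XRCC3 has the most CCAAT matches of the members (5 in the whole window), UBE2T has CCAAT and CHR together, BRIP1 rose in KD and fell in OE, FANCC has 2 E2F matches, and BARD1 fell in KD and has none of the 3. They are chr14:103715505-103715631, chr1:202341985-202342116, chr17:61863560-61863708, chr9:95317716-95317889 and chr2:214809684-214809863, all read 5′ to 3′ from the minus strand, on which each gene lies, and capitals mark the matches. The FANCC stretch lies before its canonical transcript, which starts 109087 bases inside the gene as annotated, since other transcripts start further upstream.
XRCC3: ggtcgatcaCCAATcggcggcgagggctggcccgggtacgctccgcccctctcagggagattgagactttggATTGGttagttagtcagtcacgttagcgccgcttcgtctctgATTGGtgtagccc
UBE2T: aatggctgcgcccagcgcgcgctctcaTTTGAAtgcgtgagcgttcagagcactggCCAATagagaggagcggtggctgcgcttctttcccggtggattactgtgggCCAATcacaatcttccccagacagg
BRIP1: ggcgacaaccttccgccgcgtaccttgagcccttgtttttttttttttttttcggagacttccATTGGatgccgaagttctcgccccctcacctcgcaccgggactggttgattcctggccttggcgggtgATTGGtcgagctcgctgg
FANCC: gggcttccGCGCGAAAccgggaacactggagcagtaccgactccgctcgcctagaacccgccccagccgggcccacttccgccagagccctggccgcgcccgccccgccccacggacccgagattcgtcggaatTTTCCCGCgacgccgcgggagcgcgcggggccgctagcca
BARD1: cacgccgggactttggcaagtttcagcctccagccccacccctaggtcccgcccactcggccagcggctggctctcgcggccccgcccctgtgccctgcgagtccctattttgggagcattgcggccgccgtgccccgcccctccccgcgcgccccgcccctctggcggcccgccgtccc
A match shows the letters and not binding. Genes within 5 Mb of the members had median log2 fold changes of -0.35 to 0.30 in KD and -0.30 to 0.25 in OE.

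Some counts depend on how reads were assigned, which the methods do not state for strand or for reads with several matches. CHEK2 has pseudogenes, and the most counted of them, CHEK2P2, had at most 17 reads in a library where CHEK2 had at least 339. The pseudogenes listed for FANCD2, RAD51AP1 and RBBP8 had at most 4, 1 and 0 reads. By gene body, 15 members overlap a protein-coding gene on the opposite strand, among them ATM (C11orf65), CHEK2 (HSCB), FANCA (ZNF276), FANCI (POLG), EME1 (LRRC59), MUS81 (CFL1 and EFEMP2) and XRCC3 (KLC1), and reads of such pairs cannot be told apart where exons overlap if strand was not used. On the same strand 4 do, CHEK1 (STT3A), RAD54B (FSBP), and FANCG and RAD51D, each with a gene that has no symbol, and strand would not separate these.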

How the data were processed

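RNA of 10 samples of 4 LNCaP-C4-2 lines was sequenced as poly(A) libraries (Illumina NovaSeq, paired reads of 150 bases). The authors trimmed adapters with BBDuk, dropped reads under 50 bases, and aligned and quantified with STAR 2.6.0a against human transcripts of Ensembl release 96 (build hg38.p12). The deposited values are raw counts per gene symbol, and 0 columns were left out. Lines and replicate numbers came from the sample labels. Depth was 23555205 to 28615770 counts.

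Genes were filtered with filterByExpr, TMM-scaled and tested by the quasi-likelihood F test of edgeR 4.0.16 (R 4.3.3, 1 mean per line, all 10 samples), with Benjamini-Hochberg adjustment over 17230 genes and a limit of 0.0001. SE are the log2 fold change over the square root of F. Calling was tested on simulated data with known changes in KD against NT, in genes drawn from all tested genes. The edgeR test found 54 of 100 changes of 1.5-fold and 67 of 100 of 2-fold, with 0 false calls. A gene that was not called can therefore have changed. Positions, GC content and length of the Ensembl canonical transcript came from GENCODE v44 on GRCh38, matched by symbol (14110 of 17230 tested genes, all 33 members), and promoters from RefSeq. Alternatives were DESeq2 1.42.0 size factors and Wald test, library size, 2 filters, limma-voom (limma 3.58.1), a replicate block, single arms, a limit of 0.05 and leaving out each sample. Offsets for GC content and length, from a loess curve (span 0.4) in each sample, were alternatives added once the data had been seen.

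The members, lists and motifs were chosen with earlier results of these data known. Fold changes were named for called members (up to 12 with the smallest p per direction and comparison in KD, OE and the interaction), the 5 smallest p in EV against NT and in OE against KD, the 3 smallest interaction p of each other list, CPT1A and MKI67. Other single values and the ratios between partners were chosen after their values were seen.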

Additional observations from a re-analysis of the deposited data

Results flagged for a closer look

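FANCG differed between the arms by the interaction test, at a log2 value of -0.69 ± 0.097 SE (edgeR, Benjamini-Hochberg adjusted p = 3.2e-06). It was higher in 3 of 3 KD samples than in both NT samples and higher in 3 of 3 OE samples than in both EV samples, by 2.23-fold and 1.38-fold. It was singled out because it alone among the members was called in the same direction in both arms and also in the interaction. EV was itself above NT for this gene, at a log2 value of 0.40, which enters the interaction in full. The interaction was not called without EV replicate 1, at -0.65 (edgeR, Benjamini-Hochberg adjusted p = 0.00011).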

How the results depend on the processing

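In OE against EV, where 8 members were called, there were 4 with library size scaling, 5 with limma-voom, 4 with the GC offset, 5 with the length offset and 19 at an adjusted p under 0.05, and 2 to 11 with 1 sample left out (2 without EV replicate 1, 3 without EV replicate 2, 5 without OE replicate 1 or 2, and 11 without KD replicate 2). In EV against NT, where 3 were called, there were 6 with no filter and 11 at 0.05, and 1 to 7 with 1 sample left out (1 when any of the 4 control samples was left out, 7 without KD replicate 2). Leaving out 1 sample gave 17 to 23 calls in KD against NT (21 with all samples), 16 to 24 in the interaction (21) and 26 to 28 in OE against KD (27). With no filter, and with the arm fitted alone, 12 members were called in OE against EV. The causes were not tested. Where an arm kept 1 sample, it was assumed to vary like the other lines.

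Same-numbered samples of different lines had a mean residual correlation of -0.003 (13 pairs) and others 0.002 (24 pairs), so the numbers did not pair the samples. With replicate number as a block the calls were 22 in KD against NT, 10 in OE against EV, 23 in the interaction, 3 in EV against NT and 28 in OE against KD.

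Over 97 named values and up to 20 alternatives each, 1758 of 1887 kept direction and side of the limit, 87 fell outside it, 39 came inside and 3 changed sign, none of these called in the reported fit. The 3 were BARD1 in OE against EV with library size scaling (-0.019) and ATM in OE against KD with the GC (0.23) and length (0.12) offsets. RAD54B, FANCB and FANCL had the fewest reads, down to 20, 26 and 53 in a library, and were called in OE against KD and in neither arm.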
